A study of Arabidopsis thaliana with 8 samples.

Results

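UDP-glycosyltransferases (UGTs) are the enzymes with which plants attach sugars to small molecules, and their transcripts were compared here between Arabidopsis thaliana seedlings with high and with low brassinosteroid signalling. The family was taken as the genes whose symbol in the RefSeq gene table starts with UGT and a digit. UGT73C5, UGT73C6, UGT74B1, UGT74C1, UGT75C1, UGT78D1, UGT78D2 and UGT79B1 were set aside, and so 54 genes remained of the 26716 loci with a probe. The genes were chosen by symbol, but the family itself was picked with the processed signals of the same contrast already known. Counts over it are therefore descriptions and support no statement about the family as a whole. Of the 54 genes, 50 were bright enough to test.

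Transcripts were measured on 8 single-colour Agilent arrays, 1 per sample, from seedlings of the Col-0 ecotype. In both groups the seedlings had spent 14 days with 1 µM brassinazole, which blocks brassinosteroid synthesis. The dominant mutant bil1-1D/bzr1-1D (4 samples) was then given 1 µM brassinolide, an active brassinosteroid, for 3 hours, and the wild type (4 samples) was given the solvent DMSO for as long. The mutation alters the protein BZR1, a transcription factor of the brassinosteroid pathway, and makes it accumulate, so no transcript level checks the genotype label. Genotype and hormone changed together, and the 4 arrays of each group shared a slide that held no array of the other group. Genotype, hormone and slide therefore cannot be told apart in any difference below. The labels do not tell whether replicates were grown separately, so the p-values rest on a spread between samples that may be technical.

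A UGT transfers a sugar, most often glucose, from a UDP-sugar to an acceptor such as a hormone, a phenolic acid, a flavonoid or a foreign chemical. The sugar makes the acceptor more soluble, and often inactive, so that it can be stored in the vacuole or moved. In a symbol such as UGT73B4 the number and the letter give the group and subgroup by protein similarity, and many close relatives lie next to each other in the genome. Acceptors named below are those known from work with the Arabidopsis enzymes, as background.

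Values are log2 signals relative to the 75th percentile of the same array, so that 0 is a bright spot and lower values are dimmer, and the 4 values of a group are given for replicates 1 to 4 in order. A change is the mutant with brassinolide minus the wild type with DMSO, as log2 ± SE (n = 4 arrays per group), and a gene was called where limma's Benjamini-Hochberg adjusted p over all 22101 genes tested was under 0.05. To be tested, a probe had to be well above background on each array of the mutant, of the wild type, or of both. Each probe has its own brightness, so levels of different genes are not compared.

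The mutant slide was the dimmer one. The 75th percentile of signal was 3011 to 3807 on its arrays against 4613 to 6128 on the wild-type slide, and 74.5% to 75.8% of its spots were well above background against 79.5% to 80.6%. No spot was saturated, and the number of arrays limits the precision. Across 20968 genes, which are not independent replicates, arrays of 1 group correlated at 0.989 to 0.997 (Pearson) and arrays of different groups at 0.966 to 0.976. The scanner software marked mutant replicate 4 and wild-type replicates 1 and 2 for evaluation. All 3 green-tissue markers (RBCS1A, LHCB1.3 and LHCB2.2) were well above background on every array. Their summed signal, in units of the array's 75th percentile, was 258 to 302 in the mutant and 212 to 274 in the wild type. The 3 root markers summed to 24.4 to 28.3 against 31.2 to 38.3, with BGLU23, the major beta-glucosidase of root endoplasmic reticulum bodies, lower by 0.43 ± 0.08. This sum is mostly BGLU23, at a mutant mean of 4.70 beside -1.95 for EXPA7 and -1.62 for COBL9. EXPA7 and COBL9 changed by -0.21 ± 0.30 and -0.39 ± 0.26, with overlapping groups, and were not called. Of the 3 floral markers none was called by limma at an adjusted or an unadjusted p under 0.05, with sums of 0.0993 to 0.126 against 0.110 to 0.154. Of the 3 seed storage genes, 1 was well above background on all 8 arrays, and the sums were 0.0198 to 0.0238 against 0.0185 to 0.0461. They went different ways. SESA1 changed by -2.80 ± 0.65 and cleared the background on each wild-type array but on no mutant array. CRA1 and CRU3 were called higher, by 0.77 ± 0.16 (limma adjusted p = 0.00462) and by 0.75 ± 0.13 (adjusted p = 0.00144). In whole seedlings, fewer cells of a type and less RNA per cell cannot be told apart, and the part of organ makeup or of slide brightness in the results below was not tested.

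Falls were more frequent than rises among the UGT genes. Of the 50 tested, 20 (40%) fell, 7 (14%) rose and 23 did not pass the threshold, beside 25.7% of all tested genes that fell, 30.2% that rose and 55.9% called in either direction. At least 2-fold, 13 UGT genes (26%) fell and none rose, beside 5.02% and 3.08% of all tested genes. At an unadjusted p under 0.05, too, limma found no UGT gene at least 2-fold higher. The median change was -0.21 over the UGT genes, from -4.41 to 0.97, and 0.03 over all genes tested. The 2 groups of arrays did not overlap for 22 UGT genes (44%), against 52.2% of all genes tested.

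The numbers of rises and falls called moved with the scaling. With arrays scaled to the spike-in RNAs, which shifted the median of all genes to -0.09, no UGT gene rose by limma's adjusted p, 2 did at an unadjusted p under 0.05, and 17 fell. UGT72E2, UGT72E3, UGT74F1 and UGT85A7 lost their call as lower and UGT75B1 gained one. SEs were wider for genes that lost a call, as for UGT72E1, from 0.40 ± 0.05 to 0.28 ± 0.21. They widened for other genes too, as for UGT71B1, not called in either fit, from -0.13 ± 0.06 to -0.25 ± 0.22. UGT72E2 went from -0.28 ± 0.08 to -0.41 ± 0.22, UGT72E3 from -0.28 ± 0.07 to -0.40 ± 0.21 and UGT74F1 from -0.42 ± 0.11 to -0.54 ± 0.22. These calls were lost although the changes were larger. The parts of the shift and of the wider SEs in the lost calls were not tested. With normexp background correction, which shifted the median of all genes to -0.17, 4 rose and 23 fell. All 13 of the 2-fold falls kept their call under both.

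**Figure D1:**
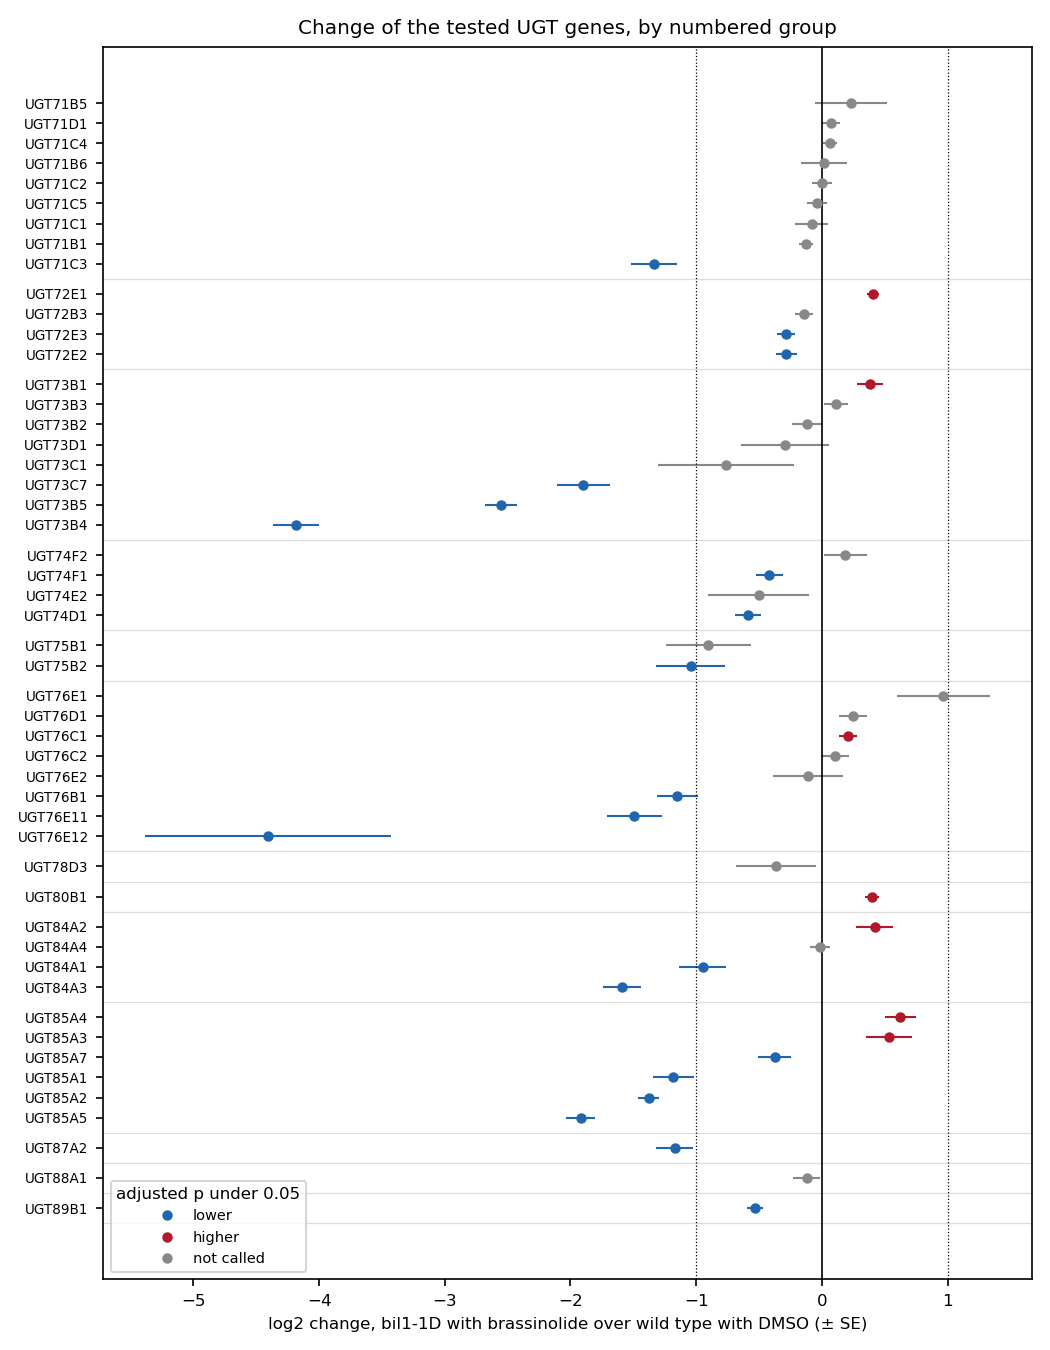
Change of each of the 50 tested UGT genes, ordered by numbered group; the x axis is the log2 change of bil1-1D with brassinolide over wild type with DMSO, points are estimates and bars are ± SE (n = 4 arrays per group). Dotted lines mark a 2-fold change. The 13 genes at least 2-fold lower are spread over groups 71, 73, 75, 76, 84, 85 and 87, and no called gene lies beyond the upper line.

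The numbered groups differed in how many genes were called, which is a description with no test between groups. A group here holds members only, without the genes set aside or those named UGT only as a synonym. The counts of groups and lists here and below stand beside the shares over all tested genes. Of those, 25.7% fell, 30.2% rose, 55.9% were called in either direction and 5.02% fell at least 2-fold. In group 71, 1 of 9 tested genes fell and none rose, also at an unadjusted p under 0.05 by limma, and in group 85, 4 of 6 fell and 2 rose. Group 74 gave 2 falls among 4 genes and a median of -0.46, group 72 gave 2 falls and 1 rise among 4 and a median of -0.21, and group 75 gave 1 fall among 2 and a median of -0.97. The 2-fold falls numbered 3 each in groups 73, 76 and 85, and 1 each in groups 71, 75, 84 and 87. The median of group 85 was -0.78.

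A deep fall with a small spread was that of UGT73B4 (AT2G15490), which conjugates foreign compounds such as the explosive TNT. UGT73B4 read -3.05, -3.09, -3.66 and -3.32 on the mutant arrays and 1.18, 0.76, 0.55 and 1.15 on the wild-type arrays. Every mutant array lay far below every wild-type array. The change was -4.19 ± 0.18, 18.2-fold lower (adjusted p = 2.72e-06). Its neighbour in the genome, UGT73B5 (AT2G15480), takes part in responses to pathogens and oxidative stress. UGT73B5 read 1.50, 1.39, 1.05 and 1.07 in the mutant and 3.88, 3.84, 3.57 and 3.94 in the wild type. The groups were again wide apart, with a change of -2.55 ± 0.13, 5.88-fold lower (adjusted p = 4.46e-06). A further probe of each gene fell as well, by 3.02 ± 0.22 for UGT73B4 and by 2.25 ± 0.16 for UGT73B5.

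UGT73C7 (AT3G53160), which glucosylates hydroxycinnamic acids, was the third gene of group 73 to fall. It read -5.05, -4.61, -5.01 and -5.03 in the mutant and -2.56, -3.53, -3.23 and -2.79 in the wild type. The probe was well above background on all 8 arrays, and the groups were apart, with a change of -1.90 ± 0.21 (adjusted p = 0.000193). UGT73B1 (AT4G34138) rose in the same group. Its mutant values of 1.89, 1.87, 1.58 and 1.92 lay above the wild-type values of 1.22, 1.54, 1.39 and 1.58, though mutant replicate 3 and wild-type replicate 4 were nearly equal. The change was 0.38 ± 0.10 (adjusted p = 0.014), and it was not called with spike-in scaling or without the 3 marked arrays. UGT73B3 and UGT73B2, the neighbours of UGT73B1, changed by 0.11 ± 0.10 and -0.11 ± 0.12 and were not called. UGT73B3 acts with UGT73B5 in pathogen responses, and its 2 groups of arrays overlapped.

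UGT73C1 (AT2G36750), which also conjugates TNT and can glucosylate cytokinins in vitro, depended on 1 array. It read -2.30, -4.41, -4.74 and -5.06 in the mutant and -3.54, -3.39, -3.34 and -3.19 in the wild type. Mutant replicate 1 was above all wild-type arrays and the other mutant arrays were below them. The change of -0.76 ± 0.54 was not called (adjusted p = 0.263), whereas without mutant replicate 1 it was -1.37 (adjusted p = 0.000523). UGT73D1 changed by -0.29 ± 0.35 and was not called, whereas with normexp background correction it was called lower, at -1.26 (adjusted p = 0.0127). Over the 8 tested genes of group 73, 3 fell, 1 rose and 4 were not called, with a median of -0.53. Among all tested genes 25.7% fell and 30.2% rose. Of the 4 members on the list of xenobiotic and stress UGTs (UGT73B3, UGT73B4, UGT73B5 and UGT73C1), 2 fell and 2 were not called, with a median of -1.66. The list also holds UGT72B1, which is no member by symbol and was not counted, and which fell by 1.88 ± 0.10 on the log2 scale.

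UGT76E12 (AT3G46660), a relative of the hydroxyjasmonate glucosyltransferase UGT76E1, read -3.62, -6.61, -8.63 and -6.84 in the mutant and -1.16, -1.93, -3.23 and -1.76 in the wild type. The groups did not overlap, but mutant replicate 1 came close to wild-type replicate 3, and the probe was well above background on 3 of the 4 mutant arrays. The change was -4.41 ± 0.98, 21.2-fold lower (adjusted p = 0.00565). Its spread was the widest of all UGT genes, with SDs of 2.08 in the mutant and 0.87 in the wild type. Leaving out mutant replicate 1 gave -5.34 and leaving out mutant replicate 3 gave -3.67. Without the 3 marked arrays the change was -3.79 and not called (adjusted p = 0.109). UGT73B4 fell further than UGT76E12 without mutant replicate 3 (-4.06), without the marked arrays (-4.11), with normexp (-3.86 against -3.33) and in the authors' value table (-4.12 against -3.93), so the order of these 2 falls depends on the setting.

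UGT76E11 (AT3G46670) lies beside UGT76E12 and fell with it. It read -2.72, -3.27, -3.81 and -3.35 in the mutant and -1.60, -1.86, -2.08 and -1.63 in the wild type. Again mutant replicate 1 was the highest and replicate 3 the lowest of the mutant arrays, and no array crossed to the other group, with a change of -1.49 ± 0.22 (adjusted p = 0.00075). UGT76E1 (AT5G59580), at another place in the genome, went the other way. Its mutant values were -5.19, -4.23, -5.38 and -5.08 and its wild-type values -4.98, -6.33, -6.51 and -5.93. Wild-type replicate 1 lay among the mutant arrays, and the change of 0.97 ± 0.37 was not called (adjusted p = 0.0544). Without wild-type replicate 1 it was 1.28 (adjusted p = 0.00808), and with normexp background correction its sign turned, at -1.26 and not called. With all arrays kept, limma called it higher with quantile scaling (adjusted p = 0.041), median scaling (adjusted p = 0.0451) and the authors' value table (adjusted p = 0.0386). The filter on all 8 arrays (adjusted p = 0.0499) and limma's trend and robust options (adjusted p = 0.0484) gave that call too. UGT76E2, next to UGT76E1, changed by -0.11 ± 0.28 and was not called, whereas with normexp it was called lower, at -1.27 (adjusted p = 0.0197). Of the 8 genes of group 76, 3 fell, 1 rose and 4 were not called, and the median was -0.00. The shares over all tested genes were 25.7% that fell and 30.2% that rose.

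**Figure D2:**
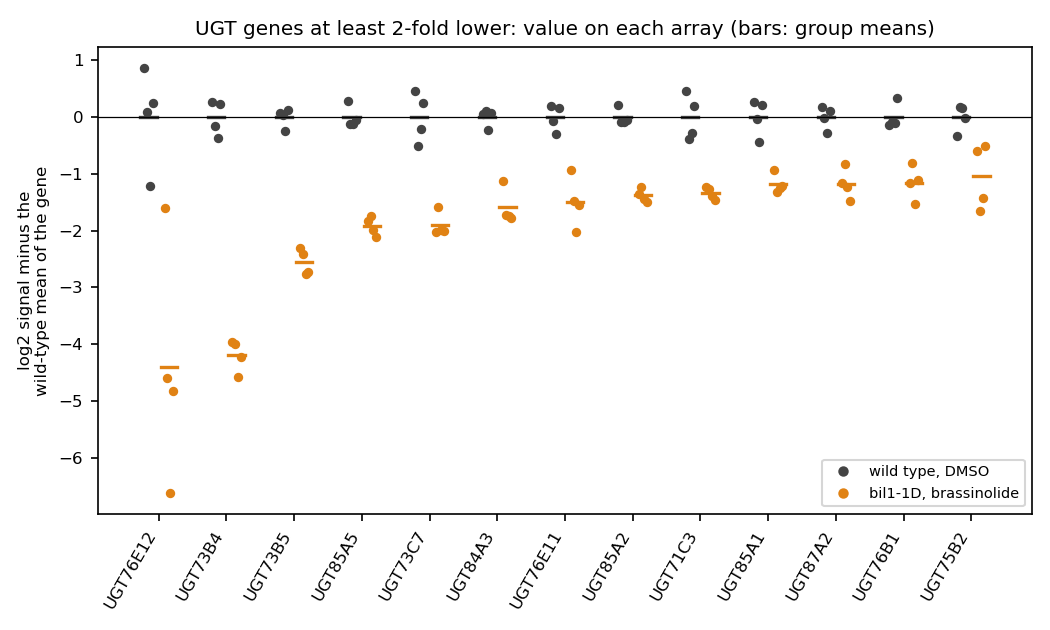
Signal of the 13 UGT genes at least 2-fold lower, on each array; the y axis is the log2 signal minus the wild-type mean of the same gene, points are arrays (4 per group) and bars are group means. The wild-type arrays scatter around 0 and every mutant point lies below every wild-type point of its gene, with the widest scatter for UGT76E12.

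Of 5 tested genes on the list of salicylate and benzoate enzymes, 3 fell and 2 were not called. This stands beside 25.7% of all tested genes that fell and 55.9% called in either direction. The lists by acceptor are selections and not complete classes, and UGT89B1, described below, is not on this list. UGT76B1 (AT3G11340) glucosylates salicylic acid, N-hydroxypipecolic acid and isoleucic acid, and so holds down immune signalling. It read 1.41, 1.75, 1.04 and 1.46 in the mutant and 2.42, 2.47, 2.46 and 2.90 in the wild type. All mutant arrays were lower, with a change of -1.15 ± 0.16 (adjusted p = 0.000632), and a further probe changed by -1.64 ± 0.19. UGT71C3 (AT1G07260), which glucosylates methyl salicylate, read -1.61, -1.63, -1.77 and -1.83 in the mutant and 0.09, -0.75, -0.66 and -0.17 in the wild type. The wild-type arrays were more spread than the mutant arrays but lay above all of them, and the change was -1.33 ± 0.18 (adjusted p = 0.000534).

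UGT74F1 (AT2G43840) and UGT74F2 (AT2G43820) are neighbouring genes whose enzymes make the glucoside and the glucose ester of salicylic acid. UGT74F1 read -1.42, -1.62, -1.38 and -1.46 in the mutant and -1.17, -1.20, -1.09 and -0.75 in the wild type, and its groups were apart by a small margin. It fell by 0.42 ± 0.11 on the log2 scale (adjusted p = 0.0111), a call that was lost with spike-in scaling. UGT74F2 overlapped between the groups and changed by 0.19 ± 0.17 (adjusted p = 0.378). UGT76D1, which glucosylates dihydroxybenzoic acids, changed by 0.25 ± 0.11 (adjusted p = 0.0923). It was called higher with quantile scaling (0.32, adjusted p = 0.0408), with median scaling (0.31, adjusted p = 0.0450) and in the authors' value table (0.31, adjusted p = 0.0406), while with normexp background correction its sign turned (-0.44, not called). The list holds UGT89A2 as well, which is no member by symbol and was not counted. Its median change was -0.42.

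In group 85, all 6 genes were called, 4 lower and 2 higher, beside 25.7% and 30.2% of all tested genes. UGT85A5 (AT1G22370) read -1.78, -1.70, -1.94 and -2.07 in the mutant and 0.33, -0.07, -0.08 and -0.01 in the wild type, and UGT85A2 (AT1G22360) read 1.08, 1.19, 0.99 and 0.94 against 2.64, 2.35, 2.34 and 2.38. Both were tight within each group and wide apart between them. Their changes were -1.92 ± 0.11 (adjusted p = 1.0e-05) and -1.38 ± 0.09 (adjusted p = 1.26e-05), and a further probe of each fell by 1.05 ± 0.12 and by 1.06 ± 0.15. UGT85A1 (AT1G22400), which adds glucose to the cytokinin zeatin, read 3.20, 2.82, 2.88 and 2.92 in the mutant and 4.40, 4.11, 3.69 and 4.34 in the wild type. The groups were apart, and the change was -1.18 ± 0.16 (adjusted p = 0.000509). UGT85A7 fell by 0.38 ± 0.13 on the log2 scale (adjusted p = 0.0405) with overlapping groups, and its call was also lost with quantile or median scaling.

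UGT85A4 (AT1G78270), the 1 member of group 85 that lies apart from the others in the genome, was the largest called rise of the family. It read 0.04, 0.34, 0.32 and 0.21 in the mutant and -0.41, -0.71, -0.27 and -0.19 in the wild type. All mutant arrays were higher, with a change of 0.62 ± 0.12 (adjusted p = 0.00297), and a further probe rose by 0.49 ± 0.11. UGT85A3 rose by 0.54 ± 0.18 (adjusted p = 0.0368) from a dim signal, with overlapping groups, and its sign turned with normexp background correction (-1.42, not called). The calls of UGT85A3 and UGT85A7 were each lost on leaving out any 1 of 6 arrays, mutant replicates 2, 3 and 4 and wild-type replicates 1, 2 and 4. Adjusted p then reached 0.0901 for UGT85A3, with changes of 0.38 to 0.58, and 0.102 for UGT85A7, with changes of -0.42 to -0.30.

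UGT87A2 (AT2G30140), known for an effect on flowering time, was the one member of its group. It read 2.03, 2.36, 1.96 and 1.70 in the mutant and 3.36, 3.17, 2.91 and 3.30 in the wild type. The lowest wild-type array stood above the highest mutant array, and the change was -1.17 ± 0.15 (adjusted p = 0.000368). UGT89B1 (AT1G73880), which glucosylates flavonols and benzoates in vitro, fell by 0.53 ± 0.06 (adjusted p = 0.000281) by its brighter probe, and a second probe fell by 1.98 ± 0.17. UGT88A1 was not called by its brightest probe, at -0.12 ± 0.11, although both further probes passed the threshold at -0.42 ± 0.11 and -1.03 ± 0.19.

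The genes that make sinapate esters were split. UGT84A1, UGT84A2, UGT84A3 and UGT84A4 join glucose to sinapate and other hydroxycinnamates, which gives the donors for sinapoylmalate, a sunscreen of Arabidopsis leaves. UGT84A3 (AT4G15490) read -0.18, -0.76, -0.79 and -0.82 in the mutant and 1.01, 1.06, 0.72 and 1.02 in the wild type. Mutant replicate 1 stood above the other mutant arrays but still below the wild type, and the change was -1.59 ± 0.15 (adjusted p = 9.67e-05), with -2.50 ± 0.17 for a further probe. UGT84A1 (AT4G15480), its neighbour, read -2.35, -3.00, -2.74 and -2.51 against -1.75, -1.32, -2.08 and -1.66. Its groups were apart too, and its change of -0.95 ± 0.19 (adjusted p = 0.00322) lay just short of 2-fold.

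UGT84A2 (AT3G21560), also named BRT1 and the main sinapate glucosyltransferase of leaves, read 1.63, 1.73, 1.76 and 1.59 in the mutant and 1.68, 1.07, 0.97 and 1.32 in the wild type. Wild-type replicate 1 lay among the mutant arrays, and the rise of 0.42 ± 0.15 was close to the threshold (adjusted p = 0.0383). Removing any array other than wild-type replicate 1 ended the call, with changes from 0.32 to 0.45 and an adjusted p of up to 0.0971. UGT84A4, the third gene of the run with UGT84A1 and UGT84A3, read -1.10, -1.29, -1.39 and -1.29 against -1.39, -1.22, -1.14 and -1.26 and was not called, with a change of -0.01 ± 0.08. Thus 2 of the 4 fell, 1 rose and 1 was not called, with a median of -0.48, beside 25.7% of all tested genes that fell and 30.2% that rose.

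UGT72E1, UGT72E2 and UGT72E3 glucosylate monolignols, the building blocks of lignin, and their aldehydes. All 3 were called with small changes, beside 55.9% of all tested genes called in either direction. UGT72E1 (AT3G50740) read 3.60, 3.72, 3.65 and 3.73 in the mutant and 3.32, 3.24, 3.26 and 3.25 in the wild type. Its groups were tight and apart, and it rose by 0.40 ± 0.05 (adjusted p = 0.000233), although the call was lost with spike-in scaling. UGT72E2 changed by -0.28 ± 0.08 (adjusted p = 0.0214) and UGT72E3 by -0.28 ± 0.07 (adjusted p = 0.0108). The call of UGT72E2 was lost without mutant replicate 2 or 3 or wild-type replicate 1 or 2, with changes of -0.26 to -0.24 and an adjusted p of up to 0.0590. A further probe of UGT72E3 gave the opposite sign, 0.33 ± 0.09 (adjusted p = 0.0118), so its direction is unsettled here. UGT72B3, the other member of group 72, changed by -0.14 ± 0.07 and was not called. UGT72B1, of group 72 but named UGT only as a synonym, was not counted and fell by 1.88 ± 0.10 on the log2 scale.

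Among the listed enzymes that inactivate auxins, 1 of 3 tested genes passed the threshold, beside 55.9% of all tested genes. UGT74D1 (AT2G31750), which glucosylates indole-3-acetic acid and its oxidised form, read 0.69, 0.60, 0.57 and 0.79 in the mutant and 1.06, 1.23, 1.53 and 1.19 in the wild type. All mutant arrays were lower, and it changed by -0.59 ± 0.10 (adjusted p = 0.00176), a value matched by its further probe at -0.59 ± 0.09. UGT74E2 (AT1G05680), which prefers indole-3-butyric acid, read 2.48, 1.72, 1.51 and 0.35 in the mutant and 1.75, 2.39, 1.95 and 1.97 in the wild type. The mutant arrays lay on both sides of the wild type, and the change of -0.50 ± 0.40 was not called (adjusted p = 0.316). UGT84B1, an indole-3-acetic acid glucosyltransferase, was not well above background on any array. The list also holds UGT75D1, which is no member by symbol.

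UGT75B1 (AT1G05560), which esterifies indole-3-acetic acid in vitro and is found at the growing cell plate, read 0.84, 0.02, -0.66 and -0.64 in the mutant and 0.38, 0.72, 0.98 and 1.09 in the wild type. Mutant replicate 1 lay among the wild-type arrays, and the change of -0.90 ± 0.34 fell just short of a call (adjusted p = 0.0506). Without mutant replicate 1 it was -1.22 (adjusted p = 0.00417), and without wild-type replicate 1 it was -1.04 (adjusted p = 0.0465). With all arrays kept, limma called it with quantile scaling (adjusted p = 0.0496) and spike-in scaling (adjusted p = 0.00658). It was also called in the authors' value table (adjusted p = 0.0469), with the filter on all 8 arrays (adjusted p = 0.0463) and with limma's trend and robust options (adjusted p = 0.0410). Its neighbour UGT75B2 (AT1G05530) read -5.74, -6.81, -6.58 and -5.66 in the mutant and -5.49, -4.97, -5.00 and -5.16 in the wild type. The gap between the groups was narrow, and the change of -1.05 ± 0.27 (adjusted p = 0.0123) lay just past 2-fold. It was the smallest of the 2-fold falls. With quantile scaling (-0.95), median scaling (-0.99) and the authors' value table (-0.82) UGT75B2 was still called but fell by less than 2-fold. On leaving out 1 array its change came as low in size as -0.84.

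Of the 3 genes on the cytokinin list UGT85A1 fell, UGT76C1 rose and UGT76C2 was not called. UGT73C1, described above, is not on that list. Neither of the 2 tested genes on the abscisic acid list was called, beside 55.9% of all tested genes. UGT76C1 and UGT76C2 add glucose to a ring nitrogen of cytokinins. UGT76C1 (AT5G05870) read -0.51, -0.36, -0.40 and -0.52 in the mutant and -0.74, -0.74, -0.51 and -0.63 in the wild type, and the groups overlapped at wild-type replicate 3. Its rise of 0.21 ± 0.07 (adjusted p = 0.0317) was the smallest call of the family and was lost without mutant replicate 2 or 3 or wild-type replicate 1, 2 or 4, with changes of 0.18 to 0.22 and an adjusted p of up to 0.0824. UGT76C2 changed by 0.10 ± 0.11 and was not called. UGT71B6 and UGT71C5, which make the glucose ester of abscisic acid, changed by 0.01 ± 0.18 and by -0.04 ± 0.08, and neither was called at an adjusted or an unadjusted p under 0.05. UGT71B8 is on the abscisic acid list too but was not bright enough to test, and UGT71B7 is on it but is no member by symbol.

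Apart from UGT71C3, group 71 did not pass the threshold, beside 55.9% of all tested genes that did. Its other 8 tested genes changed by -0.13 to 0.23, and the median of the 9 was -0.00. UGT71C1 (AT2G29750), which glucosylates phenolic acids in vitro, read 0.05, -0.40, -0.26 and 0.05 in the mutant and -0.31, 0.13, -0.05 and -0.01 in the wild type, with full overlap. UGT71B1 was not called by its brightest probe at -0.13 ± 0.06 (adjusted p = 0.0971), but both further probes passed the threshold at -0.35 ± 0.09 and -0.45 ± 0.07. Without wild-type replicate 2 the brightest probe passed too, with an adjusted p of 0.0314. UGT71B5 was not called at 0.23 ± 0.29, and with normexp background correction its sign turned and it was called, at -1.69 (adjusted p = 0.0431).

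The remaining genes that were the only member of their group were a sterol and a flavonol enzyme. Of the same groups, UGT78D1 and UGT78D2 were set aside and UGT80A2 is named UGT only as a synonym, and all are described below. UGT80B1 (AT1G43620), which glucosylates membrane sterols and is needed for the seed coat, read 0.51, 0.58, 0.57 and 0.38 in the mutant and 0.16, 0.10, 0.09 and 0.11 in the wild type. All mutant arrays were higher, with a change of 0.40 ± 0.06 (adjusted p = 0.000604). Of its further probes 1 rose by 0.23 ± 0.08 and the other gave -0.23 ± 0.12, not called, and the gene's call was lost with the mean of its probes or with spike-in scaling. UGT78D3 (AT5G17030), which adds arabinose to flavonols, was dim at -7.19, -7.66, -7.07 and -6.62 in the mutant and -6.51, -6.47, -7.66 and -6.43 in the wild type. Wild-type replicate 3 lay among the mutant arrays, and the change of -0.36 ± 0.32 was not called, whereas without that array it was -0.66 (adjusted p = 0.0353). The flavonol and anthocyanin list also holds UGT89C1, UGT79B6, UGT79B2 and UGT79B3, which are no members by symbol.

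The 4 untested genes were UGT71B8, UGT73C2, UGT84B1 and UGT84B2. UGT71B8 cleared the background on 3 wild-type arrays and on no mutant array, at a mean of -8.22 ± 0.20 (SD, n = 4) against -9.17 ± 0.32. The other 3 were not well above background on any array. For none of the 4 could a lower bound on a fold be given.

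Neighbouring UGT genes did not all move together. With up to 2 other genes allowed between members, 38 of the 54 genes fell into 15 runs in the RefSeq gene order, and 13 runs held at least 2 tested members. All tested members fell in 2 runs, UGT73B5 with UGT73B4 and UGT76E12 with UGT76E11. In 3 runs none was called, namely UGT71D1 with UGT71C2 and UGT71C1, UGT71B1 with UGT71B6, and UGT76E1 with UGT76E2. The run of UGT85A7, UGT85A2, UGT85A5, UGT85A3 and UGT85A1 was the one with calls in both directions, and its changes spanned 2.45 log2 units. UGT71C3 fell beside UGT71C5 and UGT71C4, which were not called at -0.04 ± 0.08 and 0.06 ± 0.06. Similar neighbours can share probe signal, and how much they do was not tested, since probe sequences were not used here.

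**Figure D3:**
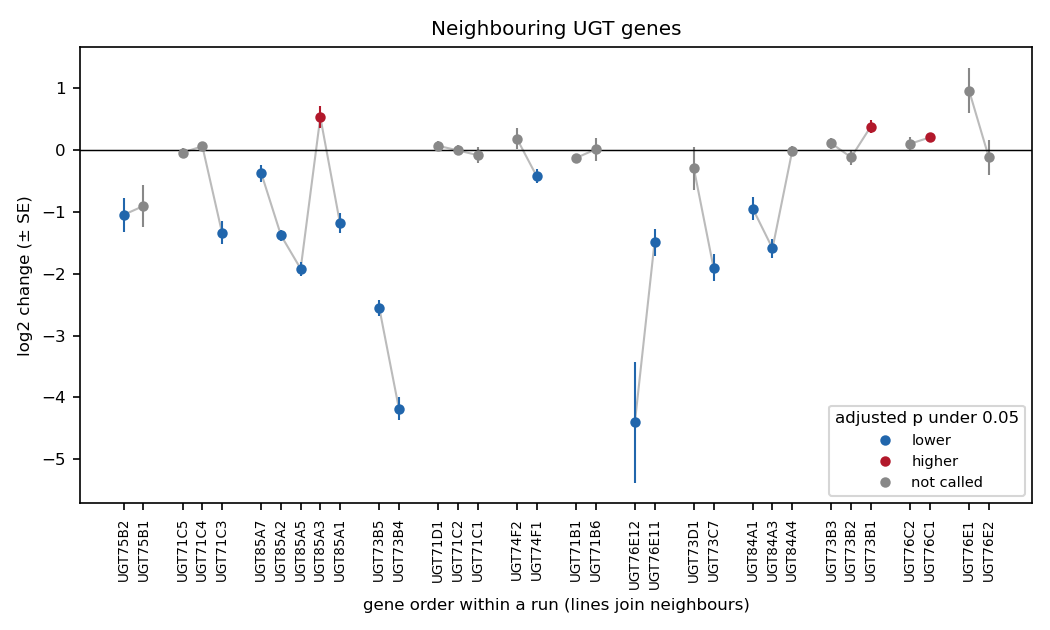
Change of the tested UGT genes in each of the 13 runs of neighbouring genes with at least 2 tested members; the y axis is the log2 change of bil1-1D with brassinolide over wild type with DMSO, points are estimates, bars are ± SE (n = 4 arrays per group) and lines join neighbours. The UGT85A run holds 4 genes that fell and UGT85A3 above 0, while the UGT73B5 and UGT76E12 runs lie below 0 throughout; the sign of UGT85A3 turned with normexp background correction.

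Probes of the same gene mostly gave the same sign. Of the 54 genes, 39 had a single probe, so their values rest on 1 oligonucleotide. For the 15 genes with further tested probes, 16 of 18 further probes had the sign of the representative, which was the probe with the highest mean. Both probes were called in 11 cases, 10 of them with the same sign and UGT72E3 as the exception. Sizes differed more than signs, as for UGT89B1 at -0.53 against -1.98 and UGT85A5 at -1.92 against -1.05. Probes of 1 gene share their RNA and arrays and are no replicates.

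**Figure D4:**
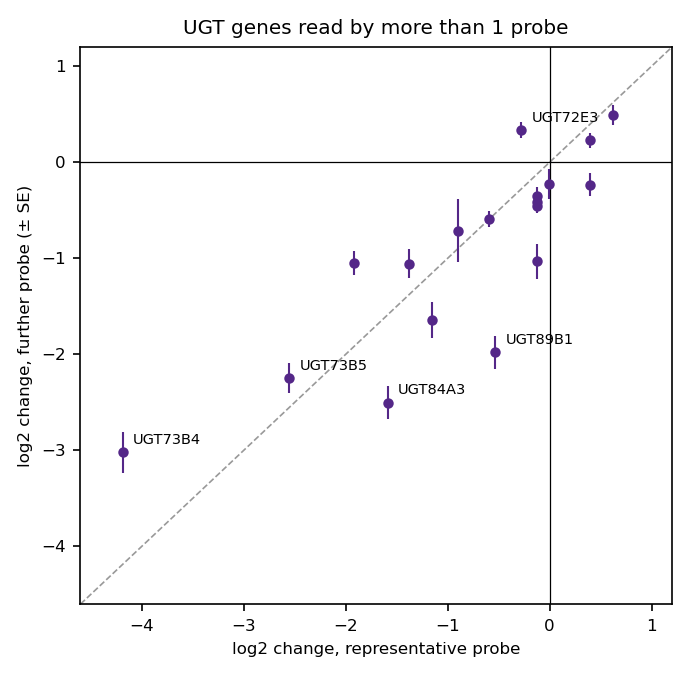
Change by each further tested probe of a UGT gene (y axis, log2 ± SE, n = 4 arrays per group) against the change by the representative probe of the same gene (x axis, log2); the dashed line marks equal values. The 18 points come from 15 genes, and 16 lie on the same side of 0 on both axes, with UGT72E3 and 1 probe of UGT80B1 as the exceptions.

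The median UGT gene varied more between samples of a group than the median tested gene, in a comparison not matched for signal. The median SD over 4 arrays was 0.17 in the mutant and 0.19 in the wild type, beside 0.0926 and 0.116 over all tested genes, a description with no test. The SD was over 0.5 for 6 UGT genes in the mutant group and for 5 in the wild type. Those 5 were UGT71B5, UGT73D1, UGT76E1, UGT76E12 and UGT78D3, with wild-type means of -6.02, -4.00, -5.94, -2.02 and -6.77. The 6 were UGT73C1, UGT75B2, UGT76E1 and UGT76E12, with mutant means of -4.13, -6.20, -4.97 and -6.42, and UGT74E2 and UGT75B1, with 1.51 and -0.11. The part of dim signal in the wider spread was not tested. Among those 6, mutant replicate 1 was the highest array 4 times and replicate 3 the lowest 3 times, and among those 5, wild-type replicate 1 was the highest 4 times and replicate 3 the lowest 4 times. Over all 50 tested genes, mutant replicate 1 was the highest of its group for 21 and wild-type replicate 3 the lowest of its group for 25.

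The enzymes that supply the UDP-sugars are described beside the family, with no test of a difference between the lists. Of 26 genes for UDP-glucose pyrophosphorylases, sucrose synthases, UDP-glucose dehydrogenases, epimerases and rhamnose or xylose synthases, all were tested, 15 rose, 5 fell and 6 were not called, beside 30.2% of all tested genes that rose and 25.7% that fell. Their median was 0.15, and the changes ran from -0.82 to 0.73, so that none reached 2-fold at an adjusted or an unadjusted p. UGE4, a UDP-glucose epimerase, rose by 0.73 ± 0.08 (adjusted p = 0.000198), and UGD4, a UDP-glucose dehydrogenase, by 0.56 ± 0.05 (adjusted p = 7.01e-05). UXS2, a UDP-xylose synthase, changed by -0.82 ± 0.12 (adjusted p = 0.00066), and UGE5, another epimerase, by -0.66 ± 0.13 (adjusted p = 0.0040). These counts became 1 higher and 2 lower when scaled to the spike-ins, and 8 higher and 2 lower without the 3 marked arrays. With the mean of a gene's probes 11 rose and 8 fell.

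The 8 UGT genes set aside gave 3 falls and 5 uncalled genes, with no rise by limma at an adjusted or an unadjusted p under 0.05. Across all tested genes 25.7% fell and 30.2% rose. UGT78D2, UGT74B1 and UGT78D1, of flavonoid and glucosinolate synthesis, changed by -0.93 ± 0.06, -0.79 ± 0.08 and -0.60 ± 0.07. UGT73C5 and UGT73C6, which glucosylate brassinosteroids themselves, changed by 0.19 ± 0.29 and 0.62 ± 0.48 and were not called. UGT79B1 changed by -1.02 ± 0.39 (adjusted p = 0.0547), and UGT74C1 and UGT75C1 were not called either. A further 4 genes carry a UGT name only as a synonym in the RefSeq table. Of these UGT72B1, which detoxifies chlorophenols, was 3.68-fold lower (-1.88 ± 0.10, adjusted p = 5.47e-06), UGT80A2, a second sterol glucosyltransferase, rose by 0.34 ± 0.05 (adjusted p = 0.000801), and UGT81A1 and UGT79B6 were not called.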

How the data were processed

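Total RNA of 8 seedling samples, 4 per group as labelled, was hybridised to 1-colour arrays, 200 ng each, per the labels' protocols. The scanner files hold spot intensity, background-subtracted and detrended as deposited by the authors, with no scaling between arrays; per the file headers they come from Feature Extraction 11.5.1.1, array design 021169 and build TAIR10. Version 9.1.3.1 stands in the submitters' processing notes. The authors' deposited value table is taken to be on a natural log scale, from slopes of 0.990 to 1.03 against the natural log of intensity; each column has a median of -0.970, its centring is unknown, and it served as an alternative.

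Per array, 43803 spots that are not controls gave 43603 probes, of which 36163 matched 1 locus in the RefSeq table (TAIR10.1, used for names and gene order only). In all, 93 outlier spots were left out. Intensities were divided by the array's 75th percentile, floored at 0.001 of it, and put on log2. A gene is its tested probe with the highest mean. limma 3.58.1 in R 4.3.3 (lmFit, eBayes) compared the groups without covariates, adjusting over 22101 genes; tables and figures used matplotlib 3.10.9, scipy 1.17.1, numpy 2.4.6 and pandas 2.3.3 in Python 3.11.15. The fit was tested on simulated data. With an n of 4 per group an exact two-sided permutation test of 1 gene cannot go below 0.0286.

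Members, lists, tests and alternatives were chosen with earlier results of these data known. Any member may be named; full statistics went to 2-fold changes past the threshold, the largest rise and fall in each numbered group with at least 3 tested members, and members of the acceptor lists, and from the UDP-sugar list to the 2 largest changes each way. Planned promoter motif counts and protein identities were not run, since sequences were not used here. Normexp ran on the median spot signal. Slide could not be fitted as a block, since each slide holds 1 group. The alternatives were other scalings, background correction, filters, probe summaries and fits, the authors' table, and fits without arrays.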

Additional observations from a re-analysis of the deposited data

Results flagged for a closer look

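In 9 of the 100 groups of 4 arrays (50 tested genes in each of the 2 groups), 1 array stood apart from the other 3 by Dixon's criterion, where chance gives about 1 in 20. UGT73B1 in mutant replicate 3 was low at 1.58, against 1.87 to 1.92 on the others. UGT73C7 in mutant replicate 2 was high at -4.61, against -5.06 to -5.01. UGT84A3 in mutant replicate 1 was high at -0.18, against -0.82 to -0.76, and in wild-type replicate 3 low at 0.72, against 1.01 to 1.06. Wild-type replicate 3 was also low for UGT73B2 at -1.08, against -0.91 to -0.88, and for UGT78D3 at -7.66, against -6.51 to -6.43. Wild-type replicate 1 was high for UGT85A2 at 2.64, against 2.34 to 2.38, and for UGT85A5 at 0.33, against -0.08 to -0.01. UGT76B1 in wild-type replicate 4 was high at 2.90, against 2.42 to 2.47. Leaving out the array that stood apart changed the call of UGT78D3 alone among these genes.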

How the results depend on the processing

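All 13 of the 2-fold UGT falls kept their call in every alternative that tested them, except UGT76E12 without the 3 marked arrays (-3.79, adjusted p = 0.109); the filter on all 8 arrays left UGT76E12 untested. The 7 rises were the less stable calls: 0 remained with spike-in scaling, 4 genes rose with normexp, and 4 to 6 on leaving out 1 array (4 without mutant replicate 2 or 3 or wild-type replicate 2 or 4). Falls numbered 18 to 22 and 2-fold falls 12 to 16 on leaving out 1 array. UGT76E1 made 1 gene 2-fold higher, in place of 0, with quantile or median scaling or without wild-type replicate 1. The median change over tested UGT members, -0.21, became -0.149 with quantile scaling, -0.334 with spike-in scaling, -0.510 with normexp, -0.144 in the authors' table, -0.133 with the filter on all 8 arrays, -0.283 with the other detection flag, -0.289 with the mean of probes, -0.133 with synonyms counted, and -0.232 to -0.149 on leaving out 1 array. The median over all tested genes, 0.035, moved with the setting too. It became 0.069 with quantile scaling, -0.087 with spike-in scaling, -0.169 with normexp and 0.070 in the authors' table. The part of these shifts in the UGT medians and counts was not tested. UDP-sugar genes, 15 higher and 5 lower, gave 1 and 2 with spike-in scaling, 8 and 2 without the marked arrays, 8 lower with the mean of probes, and 11 to 14 higher and 4 to 5 lower on leaving out 1 array. Among genes called in the main fit or in the alternative, signs turned for UGT71B5 (-1.69) and UGT85A3 (-1.42) with normexp and for UGT72E3 (0.026) with the mean of probes. Some genes called in neither fit turned as well, such as UGT76E1 (-1.26) and UGT76D1 (-0.44) with normexp. The cause was not tested. Pairing of the samples by number was not clear. Same-number correlations of deviations were -0.11, -0.33, 0.21 and 0.079, and 1 of 4 samples correlated best with its own number. On both slides the 75th percentile of signal was highest for replicate 1 and lowest for replicate 3. A block for replicate number narrowed some SEs, as for UGT76E12 from 0.98 to 0.52, and widened others, as for UGT72E1 from 0.047 to 0.056. The replicate block gave 7 rises and 19 falls, 13 of them 2-fold, with a median of -0.21, and 12 UDP-sugar genes higher and 4 lower. Under it UGT76D1 was called (0.25, adjusted p = 0.0306), and UGT84A2 (adjusted p = 0.0760) and UGT85A7 (adjusted p = 0.0580) were not. Calls as lower were gained with normexp by UGT71B5, UGT73D1 and UGT76E2. Dim probes limit UGT78D3, UGT75B2, UGT71B5, UGT76E1 and UGT85A3. Dim mutant values, at a mean of -6.42, also limit the size of the fall of UGT76E12.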
